A study of Gallus gallus with 858 samples.

Results

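BLNK, ARHGAP8, ADGRG2 and PLEKHS1 are 4 genes for intracellular or membrane signalling proteins, and their RNA was followed in single cells of the chick cranial ectoderm. They are listed as ENSGALG00000006973, ENSGALG00000019261, ENSGALG00000016511 and ENSGALG00000020679, in that order, and are 4 of the 24356 genes in the count table. They were chosen by a value of these same libraries, namely their higher level in epibranchial-like than in otic-like cells at the later stages. That contrast is therefore given below as a description only, and nothing rests on it.

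The otic placode forms the inner ear, and the neighbouring epibranchial placodes form sensory neurons of the facial, glossopharyngeal and vagal ganglia. Both arise from shared otic-epibranchial progenitors in the ectoderm beside the hindbrain. VGLL2, a cofactor of TEAD transcription factors, is a marker of the epibranchial and pharyngeal ectoderm, and SOHO-1, a homeobox transcription factor, marks the otic placode. The 4 genes belong to different signalling systems. ADGRG2 is an adhesion G protein-coupled receptor of the cell surface, known in mice and humans from the epithelium of the efferent ducts of the testis, where it takes part in fluid reabsorption. BLNK is an adaptor known from mammalian B cells, in which the kinase SYK phosphorylates it after antigen binding and it then gathers phospholipase C and other effectors. PLEKHS1 has a pleckstrin homology domain, a fold that in many proteins binds membrane phosphoinositides, and its own role is little described. ARHGAP8 has a GTPase-activating domain, which in other proteins speeds the hydrolysis of GTP by small GTPases and so switches them off.

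Embryos carried the reporter Pax2E1-EGFP, an enhancer of Pax2 in front of EGFP, introduced by electroporation at head fold stages, so that each cell entered the data because it was EGFP-positive in the sorter. Cells were collected from heads at 8 to 9 somites (ss8), 11 to 12 somites (ss11) and 14 to 15 somites (ss15), all from embryos with the same reporter and no other perturbation. No stage had a control without the reporter. Each library is 1 cell made with SmartSeq2, a full-length method without molecular identifiers, and no embryo is named, so each stage counted as 1 sample and no test between stages or cell classes was possible. Stage coincided with the sort, and by the methods of the study ss8 cells were also read on another sequencer, with another viability dye and doublet gate, so stage and these differences cannot be told apart.

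The table held 858 libraries. At ss8, 8 pairs of libraries of plate 1 were near-identical across genes (r = 0.996 to 0.998, while no other pair compared exceeded 0.880) and each pair was joined and counted as 1 cell, which left 850 cells. After 7 cells at ss8, 22 at ss11 and 40 at ss15 with under 500000 counted reads or 1000 genes were left out, 781 cells remained, of which 34.96% were from ss8, 33.5% from ss11 and 31.5% from ss15. Their median depth was 1252786 reads at ss8, 1031422.5 at ss11 and 843785.5 at ss15. Levels are given as CPM, the reads of a gene per 1000000 counted reads of the cell, and a cell was taken to have a gene at 10 CPM or more, which is at least 5 reads in the shallowest cells kept. Intervals are 95% intervals, exact binomial for shares, Newcombe for differences of shares and exact Poisson for summed reads. They cover counting error only, not the spread between embryos, and reads that are PCR copies of 1 molecule are not independent, so the true error is larger.

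VGLL2-positive cells (10 CPM or more of VGLL2) numbered 3 at ss8, 24 at ss11 and 51 at ss15, and SOHO-1-positive cells (20 CPM or more of SOHO-1) numbered 8, 55 and 67. Cells with both markers, 0, 7 and 11 in number, were kept apart. Of the cells with neither, those with at least 4 of 6 neural crest markers at 10 CPM were called crest-marked (50, 38 and 23 cells) and the rest unmarked (77.7, 52.7 and 38.2% of the cells of each stage). With the cells that had both markers included, the lowest cell past the VGLL2 limit at ss11 had 21.5 CPM of VGLL2. The highest cell under that limit had 8.53 CPM, and for SOHO-1 these values were 24.3 and 16.7 CPM. Counted in the same way at ss15, the VGLL2 values were 12.5 and 5.78 CPM, and those for SOHO-1 were 25.4 and 8.18 CPM. The VGLL2-positive cells carried other epibranchial genes, from a list chosen with earlier results of these data known. The 7 further epibranchial markers were TFAP2E, NELL1, PDLIM1, PRDM1, ISL1, KRT18 and UPK1B. Of these, 6 at ss11 and 5 at ss15 were at least 2-fold higher than in SOHO-1-positive cells and 0 were 2-fold lower. KRT18 did not differ 2-fold at either stage (log2 fold -0.33 and 0.11), nor did TFAP2E at ss15 (0.82). The 4 further otic markers, SOX8, SOX10, LMX1A and DACT2, were all at least 2-fold lower in VGLL2-positive cells at both stages. Over all genes measured between the classes, 7.75% at ss11 and 6.07% at ss15 were 2-fold or more higher, and 8.01% and 6.04% 2-fold or more lower.

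Each of the 4 genes was present in a minority of cells at every stage. BLNK was at 10 CPM or more in 49 cells or 17.9% at ss8 (interval 13.6 to 23.03), 38 cells or 14.5% at ss11 (10.47 to 19.4), and 43 cells or 17.5% at ss15 (12.9 to 22.8). ADGRG2 was found in 52 cells or 19.05% at ss8 (14.6 to 24.2), 46 cells or 17.6% at ss11 (13.2 to 22.7), and 42 cells or 17.1% at ss15 (12.6 to 22.4). For both genes the interval of each difference between stages included 0.

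ARHGAP8 was found in fewer cells after ss8. It was present in 52 cells or 19.05% at ss8 (14.6 to 24.2), 25 cells or 9.54% at ss11 (6.27 to 13.8), and 30 cells or 12.2% at ss15 (8.38 to 16.9). The difference was -9.51 percentage points for ss11 minus ss8 (-15.4 to -3.58) and -6.85 points for ss15 minus ss8 (-13.03 to -0.553), whereas that of ss15 minus ss11 included 0 (2.65 points, -2.80 to 8.21). The value for ss15 minus ss8 rested in part on plate 3 of ss8, without which it was -4.01 points (-11.05 to 2.61), and without plate 3 that for ss11 minus ss8 was -6.66 points (-13.5 to -0.396). The cells that did have ARHGAP8 had a median of 39.3 CPM at ss8, 79.8 CPM at ss11 and 63.7 CPM at ss15. The level summed over all cells was 9.61, 8.51 and 12.8 CPM. From ss8 to ss11 it fell by less than the share did, and at ss15 it was above ss8 although the share was below. Genes detected per cell also differed with stage, with a median of 7456 at ss8, 4999 at ss11 and 4862.5 at ss15, and their part in the difference in share was not tested. With every cell thinned to 500000 reads the ARHGAP8 share at ss8 was again 19.05%. Thinning leaves the expected CPM of a gene unchanged. The median of genes detected after it still differed, at 7203, 4838 and 4727.5, so thinning could not test that part.

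The share of PLEKHS1 was highest at the last stage, by less than its counting error, with 52 cells or 19.05% at ss8 (14.6 to 24.2), 49 cells or 18.7% at ss11 (14.2 to 23.96), and 63 cells or 25.6% at ss15 (20.3 to 31.5). The interval of the difference included 0 for ss15 minus ss11 (6.91 points, -0.314 to 14.1) and for ss15 minus ss8 (6.56 points, -0.597 to 13.7). In the reads summed over all cells it stood at 27.7 CPM at ss8 (27.2 to 28.3), 41.9 CPM at ss11 (41.1 to 42.7) and 57.1 CPM at ss15 (56.1 to 58.1), a log2 fold of 1.02 for ss15 over ss8 after 1 CPM was added. Genes were counted as measured in a comparison when 1 group had 20 CPM or more and at least 20% of its cells had the gene. Of 7431 genes measured between ss15 and ss8, 7.56% were 2-fold or more higher and 17.3% 2-fold or more lower, with a median log2 fold of -0.24. PLEKHS1 was the only one of the 4 that was measured by this rule there.

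No member differed 2-fold in the other stage pairs, in which 0 of the 4 were measured between ss11 and ss8 and 1, PLEKHS1, between ss15 and ss11. For ss11 over ss8 the log2 folds of BLNK, ARHGAP8, ADGRG2 and PLEKHS1 were 0.86, -0.16, 0.16 and 0.58, where 6.36% of measured genes were 2-fold higher and 15.5% 2-fold lower. For ss15 over ss11 they were -0.42, 0.54, -0.30 and 0.44, where 0.388% of genes were 2-fold higher and 0.538% 2-fold lower. The BLNK value at ss11 leaned on a single cell. That cell had 5055 CPM of BLNK and held 33.2% of all BLNK reads at ss11, and without it the summed level was 21.8 CPM instead of 32.6 CPM, against 17.5 CPM at ss8 and 24.2 CPM at ss15. The 3 plates of ss8 gave shares of 14.9 to 21.3% for BLNK, 13.8 to 24.5% for ARHGAP8, 18.1 to 20% for ADGRG2 and 16.5 to 23.4% for PLEKHS1. For BLNK and ARHGAP8 the plates of this 1 stage thus lay further apart than the stages did, and for PLEKHS1 about as far apart. A plate held 85 to 94 cells, fewer than a stage, so the share of a plate has the larger counting error.

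**Figure D1:**
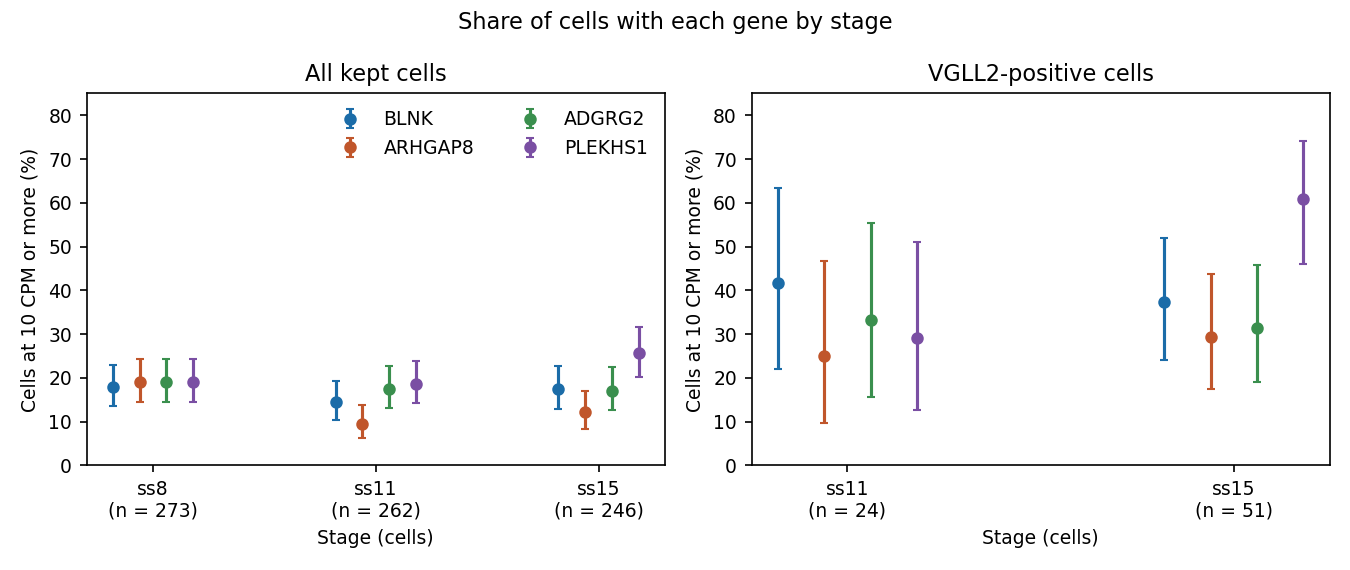
Share of cells at 10 CPM or more (%) of BLNK, ARHGAP8, ADGRG2 and PLEKHS1 in all kept cells by stage (left) and in VGLL2-positive cells by stage (right); points are shares and bars exact binomial 95% intervals. In all cells the shares lay between 9.54 and 25.6%, and in VGLL2-positive cells PLEKHS1 was at 29.2% at ss11 and 60.8% at ss15.

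The members were selected on the contrast between epibranchial-like and otic-like cells, and in the cells classed here each was found more often with VGLL2 than with SOHO-1. The intervals of the class differences below take no account of this selection, so an interval above 0 is no support for the contrast. The cells of each class came from the same sort at each stage and had similar depth, with a median of 984669.5 reads in VGLL2-positive and 1014956 reads in SOHO-1-positive cells at ss11, and 835013 against 836909 reads at ss15. The number of genes detected was also close at ss11, at 5504 against 5390, and less so at ss15, at 4961 against 4213.

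ADGRG2, the receptor, was present in 8 of 24 VGLL2-positive cells and 7 of 55 SOHO-1-positive cells at ss11, which is 33.3% against 12.7% and a difference of 20.6 points (1.54 to 41.6). Single cells reached 212.7 CPM in the VGLL2-positive class and 84.7 CPM in the SOHO-1-positive class, and the lowest and median cell of each had 0 CPM. At ss15 it was present in 16 of 51 against 5 of 67 cells (31.4% against 7.46%), and the highest cells of the classes were nearly level, at 105.4 CPM and 106.1 CPM. At ss11, 3 VGLL2-positive cells lay above the highest SOHO-1-positive cell, and at ss15 none did. The summed level was 32.9 CPM against 5.41 CPM at ss11 (log2 fold 2.40) and 16.7 CPM against 4.33 CPM at ss15 (log2 fold 1.73), the last under the 20 CPM at which a gene counted as measured. Without the cell with most ADGRG2 reads, the SOHO-1-positive class stood at 3.32 CPM at ss11 and 2.67 CPM at ss15. The VGLL2-positive class without its own such cell stood at 23.2 CPM and 14.6 CPM.

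BLNK, the adaptor, was present in 10 of 24 VGLL2-positive against 2 of 55 SOHO-1-positive cells at ss11 (41.7% against 3.64%) and in 19 of 51 against 4 of 67 at ss15 (37.3% against 5.97%). These are differences of 38.0 points (18.8 to 57.7) and 31.3 points (16.7 to 45.5). Its summed level was 80.9 CPM against 4.16 CPM at ss11 and 58.8 CPM against 3.92 CPM at ss15, log2 folds of 3.99 and 3.60. Of the BLNK reads of SOHO-1-positive cells at ss11, 85.9% came from 1 cell at 186.9 CPM, and without it that class stood at 0.599 CPM. At ss15 it stood at 2.18 CPM without the cell with most reads. The VGLL2-positive class without its own such cell stood at 63.4 CPM at ss11 and 43.1 CPM at ss15. The highest VGLL2-positive cell had 433 CPM at ss11 and 700 CPM at ss15. The NCBI RefSeq annotation of the chicken lists the symbol BLNK only as a synonym of SH2D6, a related adaptor, and which of them the identifier ENSGALG00000006973 stands for was not settled here.

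PLEKHS1 was present in 7 of 24 VGLL2-positive against 6 of 55 SOHO-1-positive cells at ss11 (29.2% against 10.9%, a difference of 18.3 points, 0.305 to 39.1). At ss15 it was present in 31 of 51 against 6 of 67 (60.8% against 8.96%, 51.8 points, 35.3 to 64.9). At ss15 it was the only member found in more than 1 of every 2 VGLL2-positive cells: the median VGLL2-positive cell had 72.2 CPM and the highest 625 CPM, while the median SOHO-1-positive cell had 0 CPM. Among the cells that had PLEKHS1 at ss15, the median was 138.4 CPM in the VGLL2-positive cells against 234.2 CPM in the few SOHO-1-positive ones, whose maximum was 557 CPM. The summed level was 41.3 CPM against 6.14 CPM at ss11 (log2 fold 2.57) and 141.9 CPM against 19.96 CPM at ss15 (log2 fold 2.77). Without the cell with most PLEKHS1 reads, the SOHO-1-positive class stood at 2.39 CPM at ss11 and 13.2 CPM at ss15. The VGLL2-positive class without its own such cell stood at 33.8 CPM and 132.9 CPM. With TFAP2E and LMX1A as the markers of the classes, the difference of shares at ss15 was 10.9 points (-9.04 to 30.2).

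ARHGAP8, the gene with the GTPase-activating domain, was present in 6 of 24 VGLL2-positive against 2 of 55 SOHO-1-positive cells at ss11 (25% against 3.64%) and in 15 of 51 against 2 of 67 at ss15 (29.4% against 2.99%). The differences were 21.4 points (5.73 to 41.4) and 26.4 points (13.5 to 40.2). Its summed level was 30.9 CPM against 2.28 CPM at ss11 (log2 fold 3.28) and 35.4 CPM against 1.26 CPM at ss15 (log2 fold 4.01). At ss11, 52.6% of its reads in VGLL2-positive cells came from 1 cell at 345 CPM, and the class stood at 15.4 CPM without it. At ss15 the VGLL2-positive class stood at 26.6 CPM without the cell with most ARHGAP8 reads. The SOHO-1-positive class, without the cell with most ARHGAP8 reads, stood at 0.920 CPM at ss11 and 0.247 CPM at ss15. In RefSeq, ARHGAP8 lies near PRR5, a gene of the mTOR complex pathway with which it forms readthrough transcripts in humans, with 4 entries between them. SmartSeq2 counts carry no strand, so reads of overlapping neighbours could not be told apart.

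**Figure D2:**
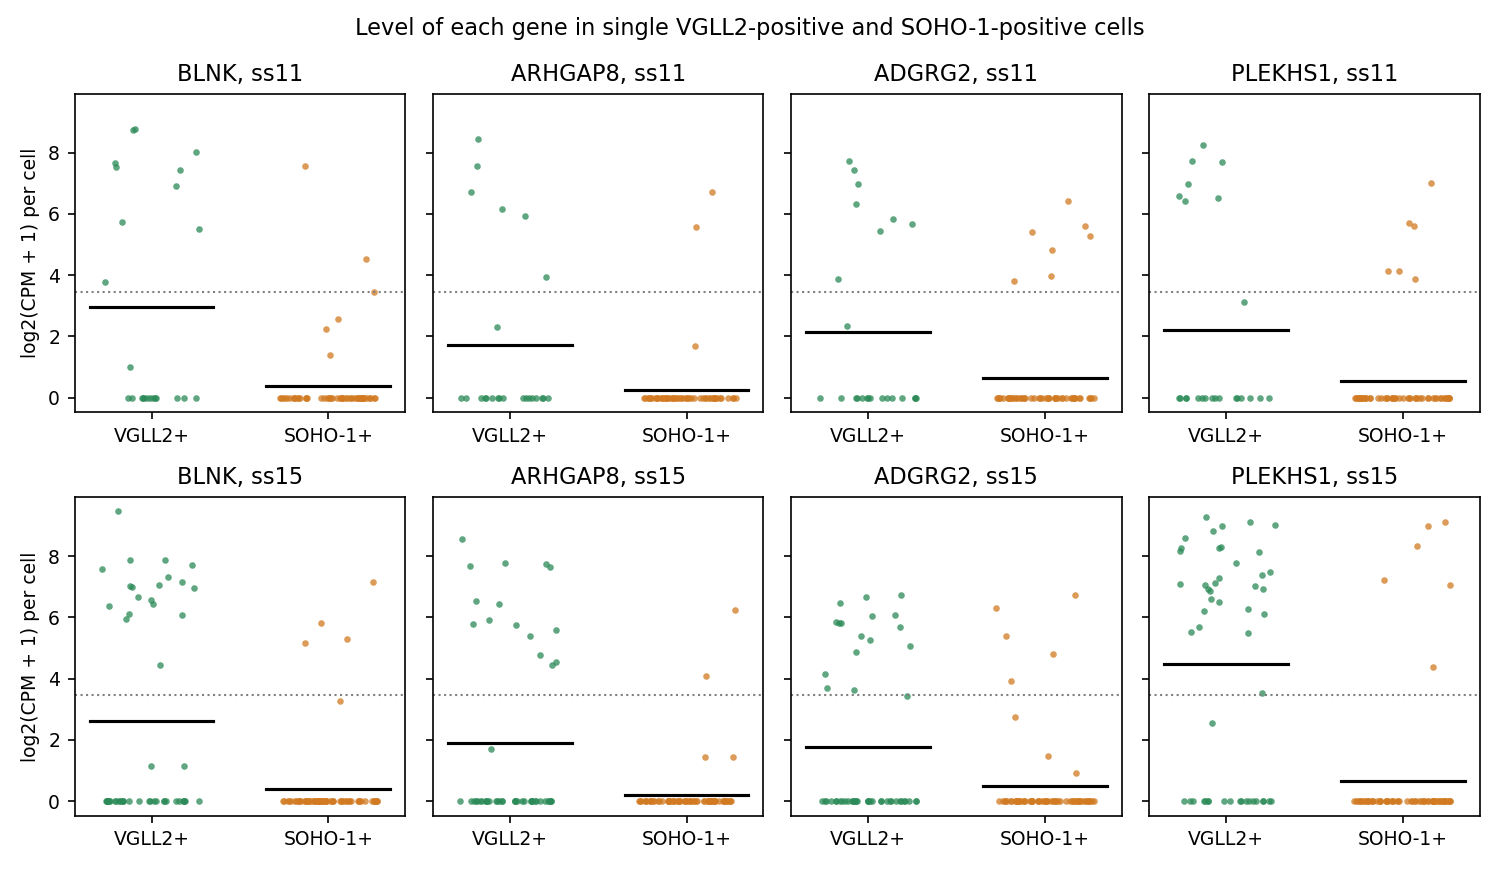
Level of each gene per cell, as log2(CPM + 1), in VGLL2-positive and SOHO-1-positive cells at ss11 (top row) and ss15 (bottom row); each dot is a cell, the black line is the mean of the plotted values and the dotted line marks 10 CPM. Most cells of both classes lay at 0, except for PLEKHS1 in VGLL2-positive cells at ss15, where 19 of 51 did, and the classes differed in the number of cells above the dotted line, for PLEKHS1 at ss15 31 of 51 against 6 of 67.

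Across the 6964 genes measured between the classes at ss11, 7.75% were 2-fold or more higher in VGLL2-positive cells and 8.01% 2-fold or more lower. At ss15 these shares were 6.07% and 6.04% of 6700 genes. The 4 members were each 2-fold higher at both stages, as their choice fixed, with ADGRG2 at ss15 outside the measured genes, and their median log2 fold was 2.92 at ss11 and 3.19 at ss15, beside 0.04 and 0.02 over all genes measured. At ss8 VGLL2 was found in 3 cells. BLNK was present in 3 of these 3 and 4 of 8 SOHO-1-positive cells, ADGRG2 in 1 of 3 and 3 of 8, PLEKHS1 in 1 of 3 and 2 of 8, and ARHGAP8 in 0 of 3 and 1 of 8. So few cells allow no comparison.

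Of 58 genes in 3 lists of pathway partners (the B cell adaptor complex, adhesion receptors with the cAMP pathway, and the PI3K and AKT pathway), 2 could be matched to an identifier. ADGRG1, another adhesion receptor of the same subfamily, was at 156.1 CPM in VGLL2-positive against 121.6 CPM in SOHO-1-positive cells at ss11, and at 142.2 CPM against 213.2 CPM at ss15, so it did not differ 2-fold at either stage. PLEKHA2, a phosphoinositide-binding protein, was under the limit for a measured gene. The partners of BLNK had no matched identifier and were not analysed here, nor were the blood, B cell and neural marker lists, so whether BLNK reads went with blood cell genes was not tested.

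The 4 genes were rare in crest-marked cells. Among crest-marked cells BLNK was found in 1 of 50 at ss8. It was found in 0 of 38 at ss11, which allows a share of up to 7.89% when the limit is set at 3 cells of the class and up to 9.25% by the exact binomial interval. It was found in 0 of 23 at ss15, which allows up to 13.04% and 14.8% by the same limits. PLEKHS1 was found in 0 of 50 crest-marked cells at ss8, which allows up to 6% and 7.11%, then in 2 of 38 and 1 of 23. ADGRG2 was found in 1, 1 and 0 of these cells and ARHGAP8 in 4, 1 and 1. At least 1 of the 4 genes was present in 12.0% of crest-marked cells at ss8, 7.89% at ss11 and 4.35% at ss15. In VGLL2-positive cells this was 70.8% at ss11 (48.9 to 87.4) and, at ss15, 80.4% (66.9 to 90.2), against 27.3% (16.1 to 40.96) and 20.9% (11.9 to 32.6) in SOHO-1-positive cells. Of the 7 cells with both markers at ss11, 0 had BLNK, 3 had PLEKHS1, 0 had ADGRG2 and 1 had ARHGAP8. Of the 11 cells with both markers at ss15, 5 had BLNK, 4 had PLEKHS1, 2 had ADGRG2 and 2 had ARHGAP8.

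**Figure D3:**
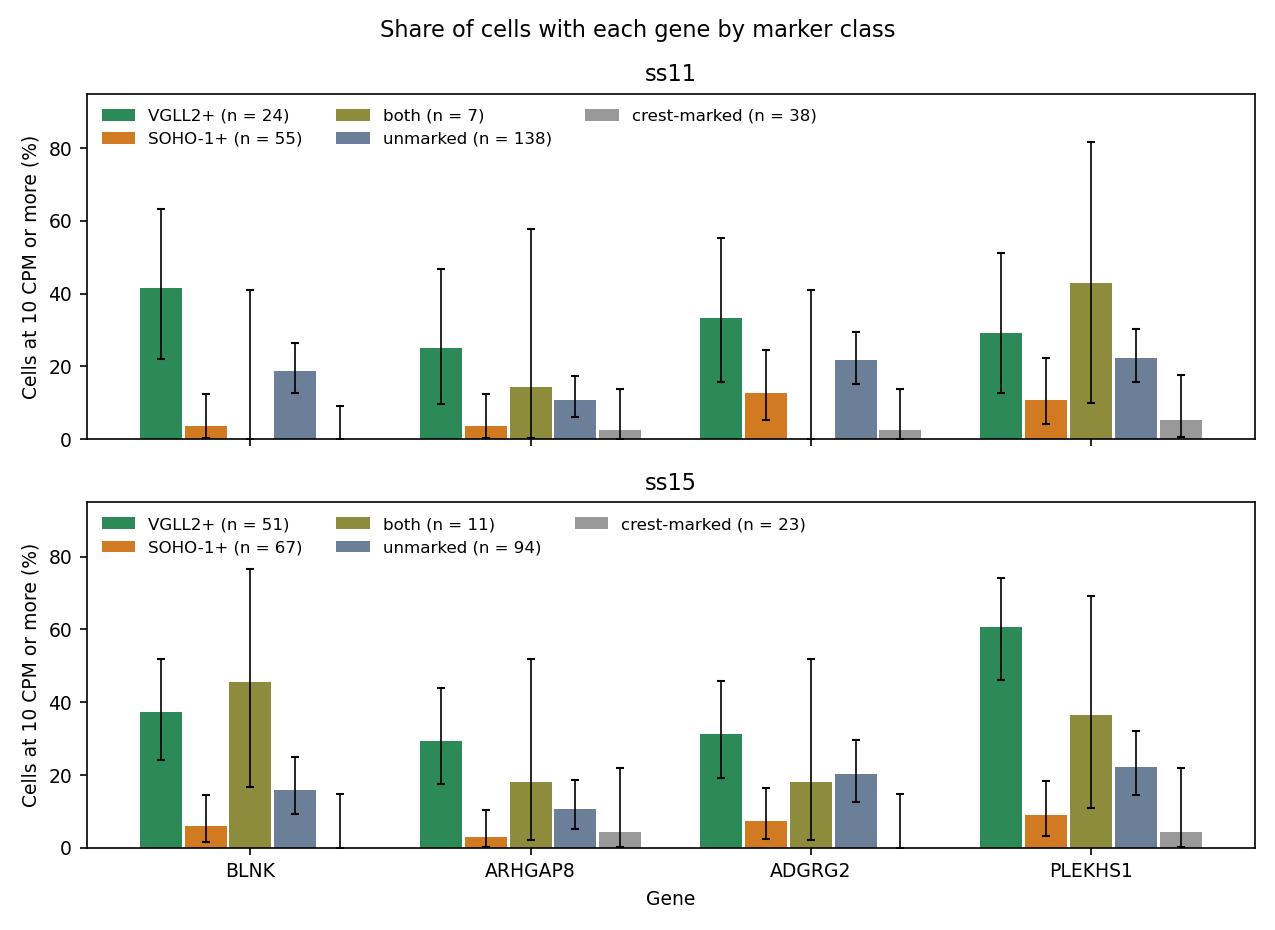
Share of cells at 10 CPM or more (%) of each gene by marker class at ss11 (top) and ss15 (bottom); bars are shares, whiskers exact binomial 95% intervals, and n is the number of cells of the class. For each gene the VGLL2-positive bar stands above the SOHO-1-positive bar, and crest-marked cells lie between 0 and 5.26%.

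The 4 genes were not limited to VGLL2-positive cells. In unmarked cells at least 1 of them was present in 44.3% of cells at ss8, 41.3% at ss11 and 39.4% at ss15, above the crest-marked cells of each stage. At ss8, where VGLL2 was nearly absent, unmarked cells held 83.7 to 94.2% of the cells with each gene, beside 77.7% of all kept cells. At ss11 they held 60 to 68.4%, beside 52.7% of all kept cells. At ss15 they held 33.3 to 45.2%, beside 38.2%, and only ADGRG2 was above that share. VGLL2-positive cells then held 38.1% of the cells with ADGRG2, 44.2% of those with BLNK, 49.2% of those with PLEKHS1 and 50% of those with ARHGAP8. In summed reads the unmarked class at ss11 stood at 67.2 CPM of PLEKHS1 and 46.4 CPM of BLNK, and the BLNK value was 26 CPM without the cell at 5055 CPM. That PLEKHS1 level was above the 41.3 CPM of VGLL2-positive cells at ss11. At ss15 ADGRG2 stood at 23.6 CPM in unmarked against 16.7 CPM in VGLL2-positive cells. By share of cells VGLL2-positive cells were higher in both cases, at 29.2% against 22.5% and 31.4% against 20.2%. The other members had the higher summed level in VGLL2-positive cells at each of these stages.

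Within VGLL2-positive cells, a contrast of stages rather than of classes, PLEKHS1 was found more often at the later stage. It was present in 60.8% of cells at ss15 against 29.2% at ss11, a difference of 31.6 points (7.37 to 50.4), and its summed level was 141.9 CPM against 41.3 CPM, a log2 fold of 1.76. The differences of the others included 0: BLNK -4.41 points (-27.3 to 17.6), ARHGAP8 4.41 points (-18.2 to 23.2) and ADGRG2 -1.96 points (-24.8 to 18.6). Their log2 folds were -0.45, 0.19 and -0.94. Of 6861 genes measured in this contrast, 7.46% were 2-fold or more higher at ss15 and 7.59% 2-fold or more lower, and PLEKHS1 was 1 of the 512 genes in the first of these groups. With TFAP2E in place of VGLL2 and LMX1A in place of SOHO-1, the share of PLEKHS1-positive cells differed by -7.69 points between ss15 and ss11. That interval (-28.3 to 13.9) included 0, so the higher share at ss15 was not seen with these markers. Which of the 2 replaced markers made the change was not tested.

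In single cells each of the 4 genes was found more often in cells with another of them than in cells without it. Many cells had only 1 of the 4, namely 19.05% of kept cells at ss8, 20.2% at ss11 and 17.5% at ss15. Cells with any of them made up 39.6%, 36.3% and 40.7%. At ss8, 35 of the 52 cells with ADGRG2 also had PLEKHS1 (67.3%, 52.9 to 79.7), against 17 cells or 7.69% of those without ADGRG2 (4.54 to 12.03). Pearson's r of log2(CPM + 1) for this pair over all kept cells was 0.68 at ss8. It was lower later, 0.26 at ss11 and 0.28 at ss15. The correlations here and below are descriptions over cells that share a library preparation, a sort and the marker classes, and detection of 1 gene can go with that of another through the class of the cell alone.

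BLNK was found with PLEKHS1 in similar proportion at every stage. Of cells with BLNK, 59.2% at ss8, 55.3% at ss11 and 55.8% at ss15 also had PLEKHS1, against 10.3%, 12.5% and 19.2% of cells without BLNK (r = 0.47, 0.38 and 0.32). BLNK and ADGRG2 were found together in 28, 19 and 17 cells, and ADGRG2 was present in 57.1%, 50% and 39.5% of cells with BLNK, against 10.7%, 12.1% and 12.3% without. ARHGAP8 went least with the others at ss8, where r was 0.14 with BLNK, 0.27 with ADGRG2 and 0.21 with PLEKHS1. Cells with all 4 genes were rare: 6 at ss8, 3 at ss11 and 3 at ss15.

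**Figure D4:**
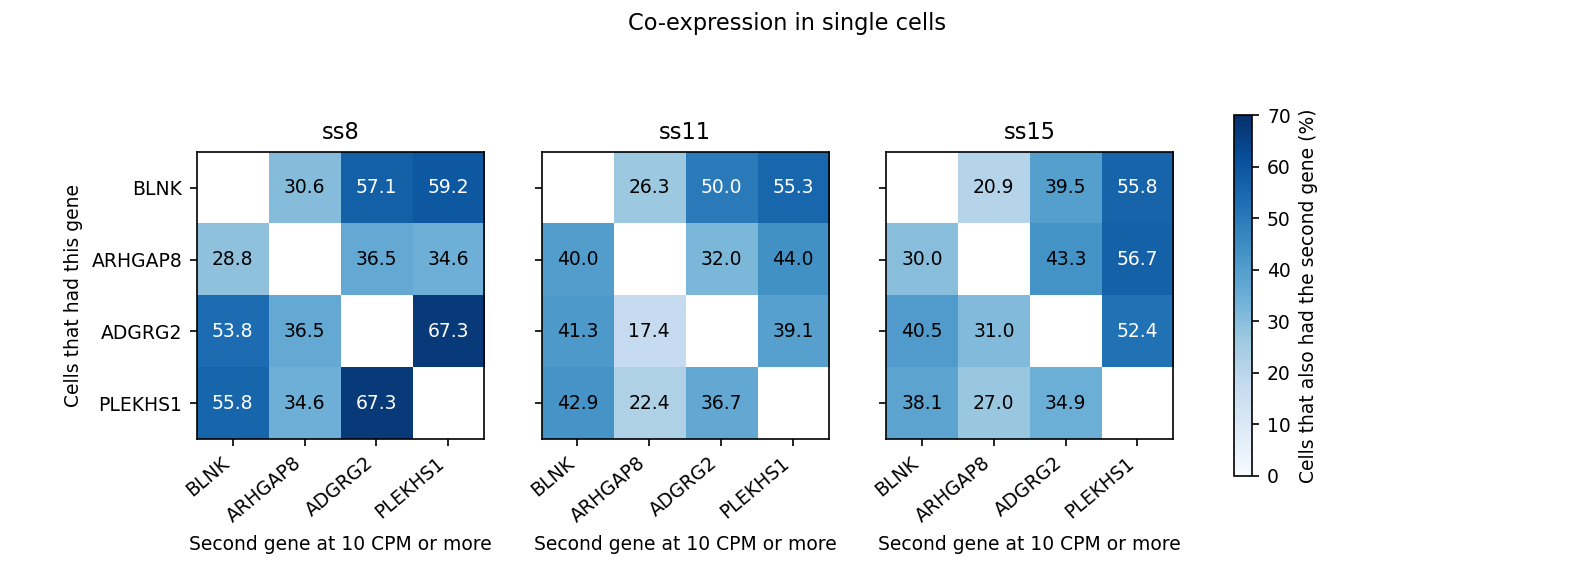
Share of cells (%) with the gene of the row that also had the gene of the column, both at 10 CPM or more, at each stage; darker blue is a higher share and the number in each square is the share. ADGRG2 and PLEKHS1 at ss8 had the highest value, 67.3%, and the row and column of ARHGAP8 at ss8 were lower than those of the other 3.

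Inside the VGLL2-positive class at ss15 the correlations of all 6 pairs were lower than over all cells of that stage. At ss11, over 24 cells, 4 of 6 were lower, while ARHGAP8 gave r = 0.39 with ADGRG2 and 0.32 with PLEKHS1, against 0.22 and 0.26 over all cells. Over the 75 VGLL2-positive cells of ss11 and ss15, PLEKHS1 was present in 14 of 29 cells with BLNK (48.3%, 29.4 to 67.5) and in 24 of 46 without it (52.2%, 36.9 to 67.1), with r = -0.02. By contrast, in cells with neither class marker PLEKHS1 was present in 65.4% of those with BLNK against 10.7% of those without at ss11 (r = 0.47) and in 53.3% against 13.7% at ss15 (r = 0.33). BLNK with ARHGAP8 gave r = 0.04 in the VGLL2-positive cells of both stages, and the highest r over these cells was 0.25, for BLNK with ADGRG2. The cells with neither marker include crest-marked cells, in which the genes were almost absent, and how much of the correlation this mixture gave was not tested.

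The genes whose pattern over cells was most like each member were taken from the 10416 genes found in at least 5% of cells at both ss11 and ss15, by the mean of Pearson's r at the 2 stages. The median r over these genes was 0.00 to 0.02. An unnamed gene, ENSGALG00000044849, was first for PLEKHS1 (r = 0.51) and for BLNK (r = 0.47) and among the 5 closest for ADGRG2 (r = 0.34). For BLNK the 5 closest also held NELL1, a secreted glycoprotein (r = 0.37), PLEKHS1 (r = 0.35) and 2 unnamed genes. For PLEKHS1 all 5 were unnamed (r = 0.40 to 0.51), and NELL1 came next (r = 0.39). For ADGRG2 they held COL14A1, a fibril-associated collagen (r = 0.36), CHST9, a sulfotransferase of the Golgi (r = 0.32), and 3 unnamed genes.

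For ARHGAP8 the 5 closest were DSP, the desmosome protein desmoplakin (r = 0.32), AGR2, a disulfide isomerase of the endoplasmic reticulum in secretory epithelia (r = 0.31), the growth factor FGF8 (r = 0.31), NELL1 (r = 0.30) and 1 unnamed gene (r = 0.29). DSP, AGR2 and FGF8 also stood near BLNK, at ranks 6, 7 and 11 (r = 0.35, 0.35 and 0.34), and AGR2 was at rank 14 for PLEKHS1 (r = 0.36). Ranked among all 10416 genes, VGLL2 was at 10 for ARHGAP8 (r = 0.26), 33 for BLNK (r = 0.28) and 69 for PLEKHS1 (r = 0.28). For ADGRG2 it stood lower, 2.73% of the way down the list (r = 0.13). SOHO-1 was near the bottom for all 4, at ranks of 10355 to 10396 with r of -0.13 to -0.17. The members were chosen on the contrast of epibranchial-like and otic-like cells, so these ranks of VGLL2 and SOHO-1 are no separate finding. Only 2.04% of the genes ranked had a symbol. These symbols came from the study's own gene lists, of otic against epibranchial cells and of Sox8 overexpression against control. Their number among the closest genes is therefore no finding.

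At ss11 and ss15, EGFP at 10 CPM or more was more frequent in cells with each of the 4 genes than in cells without it. Intervals of these differences were not computed. Those of ARHGAP8 and ADGRG2 at ss15, from 30 and 42 cells with the gene, were the smallest. At ss11, 81.6% of cells with PLEKHS1 had 10 CPM or more of EGFP, against 46.01% of cells without it, and at ss15 84.1% against 53.6%. For BLNK these shares were 81.6% against 47.8% at ss11 and 83.7% against 56.7% at ss15, for ARHGAP8 84% against 49.4% and 70% against 60.2%, and for ADGRG2 69.6% against 49.1% and 71.4% against 59.3%. At ss8, where EGFP was at 10 CPM in 88.6% of all cells, these shares were closer, and for ARHGAP8 they were 86.5% against 89.1%. The median EGFP level at ss8 still differed, at 413.6 CPM in cells with BLNK against 83.9 CPM in cells without, 453 CPM against 82.2 CPM for ADGRG2, 367 CPM against 86.7 CPM for PLEKHS1 and 187.9 CPM against 103.3 CPM for ARHGAP8. Depth did not go along: at ss15 the median was 864164 reads in cells with PLEKHS1 and 836909 in cells without. The median number of genes detected was higher in cells with a member, at ss15 5214 against 4700 for PLEKHS1 and 5528 against 4631 for BLNK. For BLNK it was 7924 against 7263.5 at ss8 and closer at ss11, 5083 against 4993.5. Over the cells of ss11 and of ss15, r between a member's level and the number of genes detected was 0.02 to 0.18. EGFP also differed by class. At ss11 it was at 10 CPM in every VGLL2-positive cell, in 74.5% of SOHO-1-positive and in 18.4% of crest-marked cells. At ss15 it was in 88.2% of VGLL2-positive, 71.6% of SOHO-1-positive and 26.1% of crest-marked cells. The part of the class in the EGFP differences above was not tested.

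The unmarked cells that carried the genes were set against those that did not, a comparison chosen after the values were seen. Unmarked cells with at least 2 of the 4 numbered 51 at ss8, 28 at ss11 and 20 at ss15, or 24.1, 20.3 and 21.3% of the class, and those with none made up 55.7, 58.7 and 60.6%. Cells with 2 or more members had epithelial and placodal genes. At ss8, CDH1, which encodes E-cadherin, was present in 96.1% of them against 19.5% of cells with none, and UPK1B, a uroplakin of the tetraspanin family, in 78.4% against 4.24%. The placodal transcription factor genes GATA3 and DLX6 were present in 82.4% against 8.47% and 64.7% against 5.08%.

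CDH1, UPK1B and GATA3 differed in the same direction later, by less. At ss11 CDH1 was present in 67.9% of cells with 2 or more members against 20.99% of cells with none, UPK1B in 50% against 3.70% and GATA3 in 57.1% against 23.5%. At ss15 the shares were 70% against 21.1% for CDH1, 35% against 1.75% for UPK1B and 50% against 22.8% for GATA3. DLX6 was present in 25% against 1.23% at ss11, whereas at ss15 it was found in 2 cells of each group, the difference of 6.49 points included 0 (-4.59 to 26.8), and its summed level was 4.66 CPM against 9.62 CPM. NELL1, an epibranchial marker, was present in 90.2% against 35.6% at ss8, 64.3% against 13.6% at ss11 and 60% against 10.53% at ss15. The members were chosen for their higher level in epibranchial-like cells at the later stages. Epibranchial genes in cells with more members, here and in the lists below, are therefore no separate finding. NELL1, UPK1B and CDH1 were also among the named genes most like a member over all cells of ss11 and ss15. By definition VGLL2 and SOHO-1 were under their limits in these cells, and fewer than 4 of the 6 crest markers were at 10 CPM. The otic and crest counts below are bounded by this.

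By lists, of the epibranchial markers that were measured, 4 of 6 at ss8, 7 of 7 at ss11 and 4 of 6 at ss15 were 2-fold or more higher in unmarked cells with 2 or more members than in those with none, and 0 were 2-fold lower. Of 16 epithelial genes, a list set up after the values were seen and sharing KRT18 with the epibranchial list, 11 of 12, 11 of 13 and 9 of 12 measured were 2-fold higher, and 1, the desmosome gene PKP2, was 2-fold lower at ss15 (21.99 CPM against 54.6 CPM). Of the otic markers, 2 of 3 measured at ss8 were 2-fold higher and 1 of 4 at ss11 was 2-fold lower. At ss15 LMX1A was 2-fold higher (65.6 CPM against 10.98 CPM) and 2 of 4 were 2-fold lower. In share of cells, 3 of 5 otic markers at ss8, 1 at ss11 and 1 at ss15 had an interval of the difference above 0. An interval below 0 was found for 0, 0 and 1. The otic marker above 0 at ss11 was LMX1A (39.3% against 19.8%). Of the neural crest markers, 3 of 4, 1 of 3 and 4 of 4 measured were 2-fold lower. By share of cells, the interval of the difference lay above 0 for 2 of 6 crest markers at ss8, 1 at ss11 and 0 at ss15. It lay below 0 for 3, 0 and 1. Those above 0 were TFAP2B, also an ectodermal gene (58.8% against 6.78% at ss8, 50% against 19.8% at ss11), and RXRG (33.3% against 7.63% at ss8). Over all genes measured the shares 2-fold higher were 7.75% at ss8, 9.04% at ss11 and 13.4% at ss15, and the shares 2-fold lower 4.58%, 7.78% and 11.9%.

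Library properties moved with this split too. At 10 CPM or more, EGFP was present in 98.04% of unmarked cells with 2 or more members against 89.8% of those with none at ss8, 78.6% against 24.7% at ss11 and 75% against 33.3% at ss15. Median genes detected were 7915 against 6818.5 at ss8, 4948.5 against 4674 at ss11 and 4383.5 against 4383 at ss15. Their part in the differences above was not tested.

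**Figure D5:**
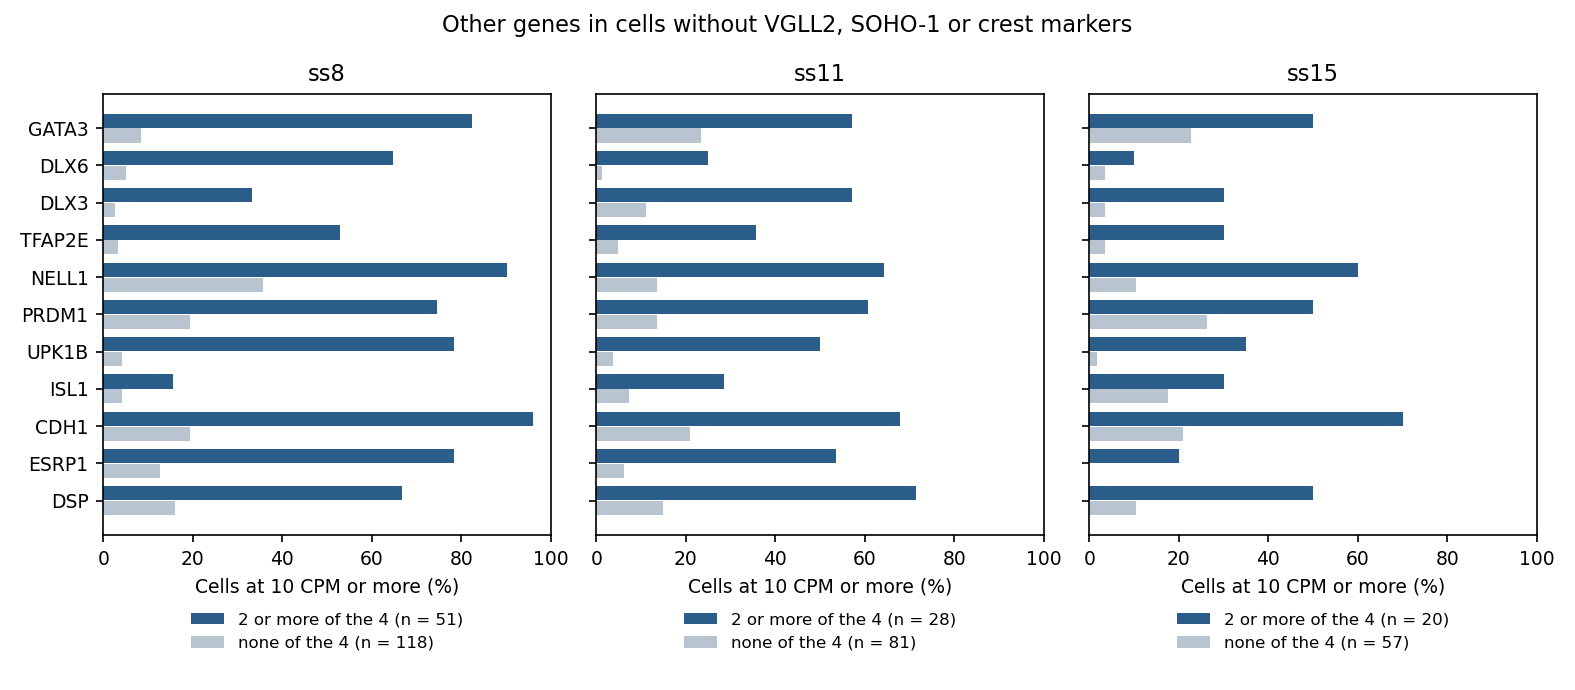
Share of unmarked cells at 10 CPM or more (%) of 11 placodal, epibranchial and epithelial genes, in cells with 2 or more of the 4 signalling genes (dark bars) and in cells with none of them (light bars), at ss8, ss11 and ss15. The 11 genes were picked after the values were seen, and others of the lists differed less, such as TP63 at ss8 (11.8% against 11.9%). The dark bar exceeds the light one for each gene shown at each stage, with CDH1 at 96.1% against 19.5% at ss8 and 70% against 21.1% at ss15. At ss15 the intervals of the differences for DLX6, PRDM1 and ISL1 included 0.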

How the data were processed

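The authors deposited read counts per gene and cell. Per the submitters' processing notes these rest on cutadapt 2.10 for trimming, HISAT2 2.2.1 for alignment to galGal6 plus a GFP sequence, and SAMtools 1.10 with HTSeq 0.12.4 for counting. By the series description all libraries were paired-end, whereas the methods give single-end reads at ss8. Counts were not changed. CPM was the count over the cell total, and 0 columns lacked a sample. Groups came from the stage of each cell in the labels, 1 sample a stage, so no test was run. Log2 folds used summed counts with 1 CPM added. Symbols came from 332 pairs of identifier and symbol in the study's tables, and RefSeq (GRCg7b) gave synonyms and neighbours only.

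The members and lists were chosen with earlier results of these data known. Named genes were the 4 members, the 5 genes most like each, the class markers and up to 3 measured pathway genes. Some genes and a planned pathway list are not reported here. Genes of the unmarked-cell comparison were named after their values were seen. Alternatives were limits of 5 and 20 CPM, thinning to 500000 reads, other cell limits, unjoined libraries, totals without the 50 most abundant genes, each ss8 plate left out, other class limits and markers, equal cell weights, TMM factors, 5 CPM added, and, chosen after seeing the data, the top cell left out. The fold and correlation steps were tested on simulated data. Python 3.11.15, numpy 2.4.6, pandas 2.3.3, scipy 1.17.1, R 4.3.3 and edgeR 4.0.16 (TMM factors only) were used.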

Additional observations from a re-analysis of the deposited data

How the results depend on the processing

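All but 3 of the differences of shares recomputed under the alternatives moved by less than their counting error. PLEKHS1 in VGLL2-positive minus SOHO-1-positive cells at ss15 (51.8 points) became 65.9 points with limits of 1000000 reads and 2000 genes and 10.9 points with classes from TFAP2E and LMX1A. PLEKHS1 at ss15 minus ss11 within VGLL2-positive cells (31.6 points) became -7.69 points with classes from TFAP2E and LMX1A, with an interval that included 0. The causes were not tested. Of the log2 folds, 23 moved by more than a fixed limit on the log2 scale, without a change of sign, and the others moved by less. That limit was not their counting error, so a fold that moved by less can still lie outside its interval. With TFAP2E and LMX1A the log2 fold at ss11 was 1.42 for BLNK and 0.66 for PLEKHS1, and without the cell with most reads in each class it was 5.33 for BLNK and 3.36 for PLEKHS1. The share of genes 2-fold lower between the classes at ss11 was 4.96% at 50 CPM. Of the co-expression shares, 54 of 54 stayed within their error. The number of cells limits the rarer classes most: with 24 VGLL2-positive cells at ss11 a difference of shares spanned, for ADGRG2, 1.54 to 41.6 points, and 0 of 23 crest-marked cells allows a share of up to 14.8% by the exact binomial interval.

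No paired analysis was possible because each stage is 1 sample and no test was run.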
